A study of Rattus norvegicus with 4 samples.

Results

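Transcripts of heme synthesis and iron handling were followed in the testis of young Sprague Dawley rats, an outbred laboratory strain, after 4 days of injections against follicle-stimulating hormone (FSH), the pituitary hormone that acts on Sertoli cells. The set holds 9 genes: Alas2, Alas1 and Alad, which act in heme synthesis, Hmox1 and Hmox2, which break heme down, Slc11a2, Tfrc and Fth1, which import or store iron, and Hbb, the beta chain of hemoglobin. A probe set counted as a member where the platform annotation gave it a single symbol and that symbol was one of the 9. This gave 13 probe sets of 8 genes, out of 4737 genes with such a probe set on the array. Fth1 is left out because its probe set also pairs with a pseudogene. The genes were selected on the measured values of the antibody-against-control contrast, gathered around the lower intensity of Alas2, so the differences of all members in that contrast are given as a description and not as a test.

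Heme is made from glycine and succinyl-CoA in steps that begin and end in the mitochondrion. The first step, catalysed by 5-aminolevulinate synthase, limits the rate. Alas1 encodes the form found in all tissues and the X-linked Alas2 the form of red cell precursors. Iron enters most cells bound to transferrin through the transferrin receptor and crosses the endosomal membrane through the divalent metal transporter, while heme oxygenases release iron from heme. In the testis, Sertoli cells pass iron to germ cells across the blood-testis barrier, and Leydig cells use heme in the cytochromes P450 that make steroids.

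The study had 2 groups of 2 RNA samples, each hybridised to its own array (Affymetrix rat U34, set A). One group received a control sheep immunoglobulin and the other a sheep antibody raised against rat FSH; all were males, and the labels name no other treatment, allele or transgene. The labels disagree on age: the treatment protocol gives injections from day 18 and collection on day 22, the series design gives day 14 at treatment, and the source names give day 18. The second antibody sample is titled by a postnatal day in place of its treatment, and its group was taken from its source name. The extraction protocol speaks of pools of ovaries where each source name gives the testis of 1 numbered rat, so the number of animals behind an array is not settled, and p-values measure the spread between these RNA samples.

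The deposited values are intensities on a linear scale. Array medians lay between 36.5 and 40.4, and 5252 of 8799 probe sets were bright enough to be tested, all 13 members among them. Of the markers with a single-symbol probe set, 7 of 7 for germ cells, 7 of 7 for Sertoli cells and 4 of 4 for Leydig cells passed that filter. Below, group values are means ± SD of 2 arrays, and a log2 change is antibody minus control ± SE of log2(intensity + 16), where the added constant shrinks the differences of dim probe sets. With 2 arrays a group, precision is limited throughout, and in whole-organ RNA fewer cells of a type cannot be told apart from less RNA per cell.

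All 13 member probe sets had lower mean values after the antibody, with log2 changes from −1.38 to −0.04 and a median of −0.43. Over all tested probe sets the median was 0.03 and 44.7% had lower values. The antibody arrays lay below both control arrays on 9 of the 13, against a background of 15.5% of all tested probe sets; groups that did not overlap in either direction made up 37.4%. A log2 change at or below −0.5 was found on 5 of the 13, against 3.81% of all tested probe sets. In the limma fit with Benjamini-Hochberg adjustment over all tested probe sets, 1 of the 13, Alas2, was called, where 0.267% of probe sets were called in either direction and 0.152% in the lower direction. The calls were 6 higher and 8 lower; after centring the arrays on their medians, they were 3 higher and 1 lower. Nothing is read from these counts, since the same contrast chose the genes.

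**Figure D1:**
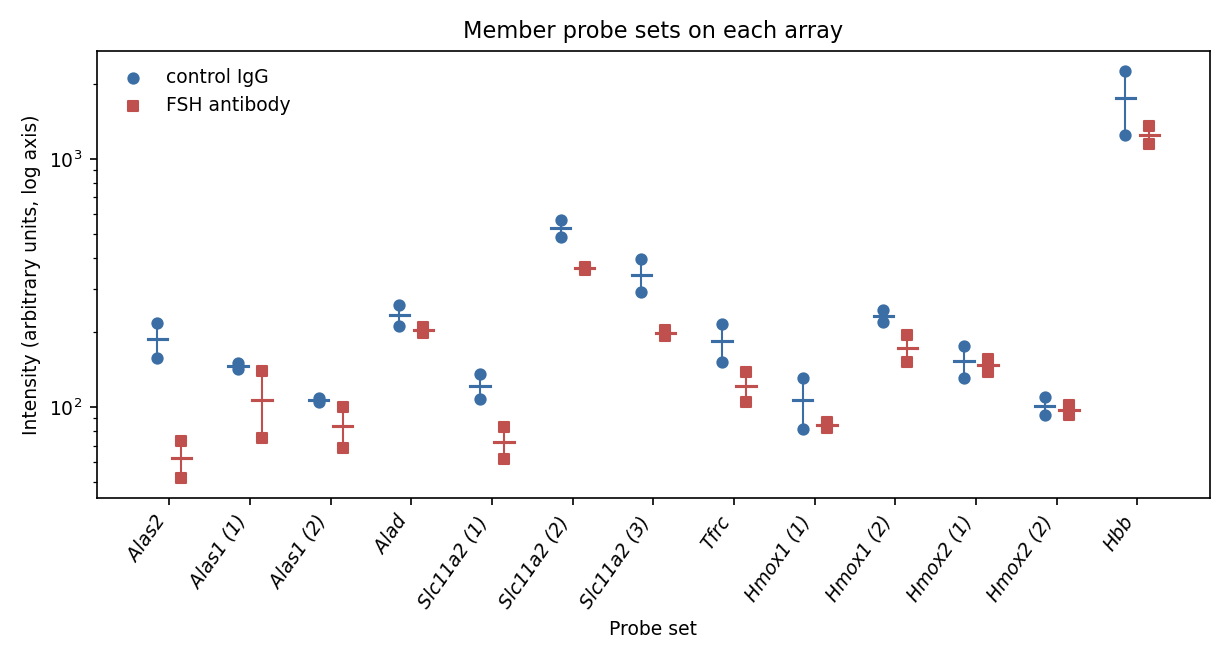
Intensity of each member probe set (log axis) on the 2 control arrays (circles) and 2 antibody arrays (squares), with a vertical line joining the arrays of a group and a short bar at their mean. Alas2 has the widest gap between groups on this axis, from 188 to 62.4 on average, the 3 Slc11a2 probe sets lie lower after the antibody with no overlap, and the Hmox2 groups overlap.

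Alas2 had an intensity of 158.4 and 218.0 in the control samples and of 72.8 and 51.9 in the antibody samples. Both antibody arrays were thus well below both controls. The means were 188 ± 42.1 and 62.4 ± 14.8 (SD, n = 2), so that the antibody group stood at 33.1% of the controls, and the log2 change was −1.38 ± 0.21. The call ended when either control array was left out, with log2 changes of −1.59 ± 0.25 without the first and −1.17 ± 0.25 without the second. It also ended with quantile normalization, median centring, a constant of 1, no filter on dim probe sets and no intensity trend, at changes between −1.58 and −1.38.

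Alas1, the ubiquitous counterpart of Alas2, is represented by 2 probe sets designed from the same sequence, which are therefore not independent. The first (J03190_at) read 142.8 and 151.2 in the control samples and 139.5 and 74.8 in the antibody samples. The first antibody array was thus close to the controls and only the second was clearly lower. The other (J03190_g_at) showed the same order, with 105.3 and 108.4 in the controls and 100 and 68.4 after the antibody. The log2 changes were −0.46 ± 0.25 and −0.31 ± 0.20. Without the second antibody array they were −0.07 and −0.08, and without the first −0.84 and −0.54.

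Alad, which joins pairs of aminolevulinate molecules in the step after Alas1 and Alas2, was at 212.8 and 257.9 in the control samples and at 198.9 and 211.2 in the antibody samples. The groups did not overlap, but the higher antibody value lay just below the lower control value. Its log2 change was −0.18 ± 0.18, and −0.05 without the second control array.

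Slc11a2 encodes the divalent metal transporter DMT1, which moves ferrous iron into the cytosol. Its 3 probe sets come from 2 source sequences and all showed lower values on both antibody arrays. The first (AF008439_at) read 136.1 and 107.4 in the controls and 61.7 and 83.1 after the antibody. The second (AF008439_g_at, of the same sequence) read 566.9 and 485.4 against 356.0 and 368.6. The third (rc_AA892390_s_at) read 393.5 and 289.9 against 203.9 and 193.8.

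None of the Slc11a2 probe sets had overlapping groups, and on each the first control array was the highest of the 4. The antibody group stood at 59.5%, 68.9% and 58.2% of the controls, with log2 changes of −0.64 ± 0.20, −0.52 ± 0.17 and −0.72 ± 0.19. None of these was called. With each array left out in turn, they ranged from −0.82 to −0.47, from −0.62 to −0.41 and from −0.93 to −0.51.

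Tfrc, the transferrin receptor, was at 215.6 and 152.2 in the control samples and at 104.6 and 138.6 in the antibody samples. The groups did not overlap, and as for Slc11a2 the first control array was the highest. The antibody group stood at 66.1% of the controls, a log2 change of −0.53 ± 0.21 that was not called. It was −0.30 without the first control array and −0.76 without the second.

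Hmox1, the inducible heme oxygenase, had 2 probe sets that differed in pattern. One (rc_AI179610_at) read 245.3 and 221.1 in the control samples and 195.1 and 152.4 in the antibody samples, with no overlap and a log2 change of −0.40 ± 0.18. It was −0.24 without the second antibody array. The other (J02722cds_at) read 131.5 and 81.8 against 82.4 and 87.0. There the first control array alone was high, the groups overlapped, and the change of −0.25 ± 0.22 became 0.04 without that array and −0.55 without the other control.

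Hmox2, the constitutive heme oxygenase, had overlapping groups on both probe sets. The first (J05405mRNA_s_at) read 130.6 and 176.0 in the controls and 138.5 and 156.2 after the antibody, and the second (U05013_at) 109.8 and 92.8 against 102.1 and 93.1. The log2 changes were −0.04 ± 0.19 and −0.04 ± 0.18, and each turned in direction with 1 array left out, to at most 0.15 and 0.06.

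**Figure D2:**
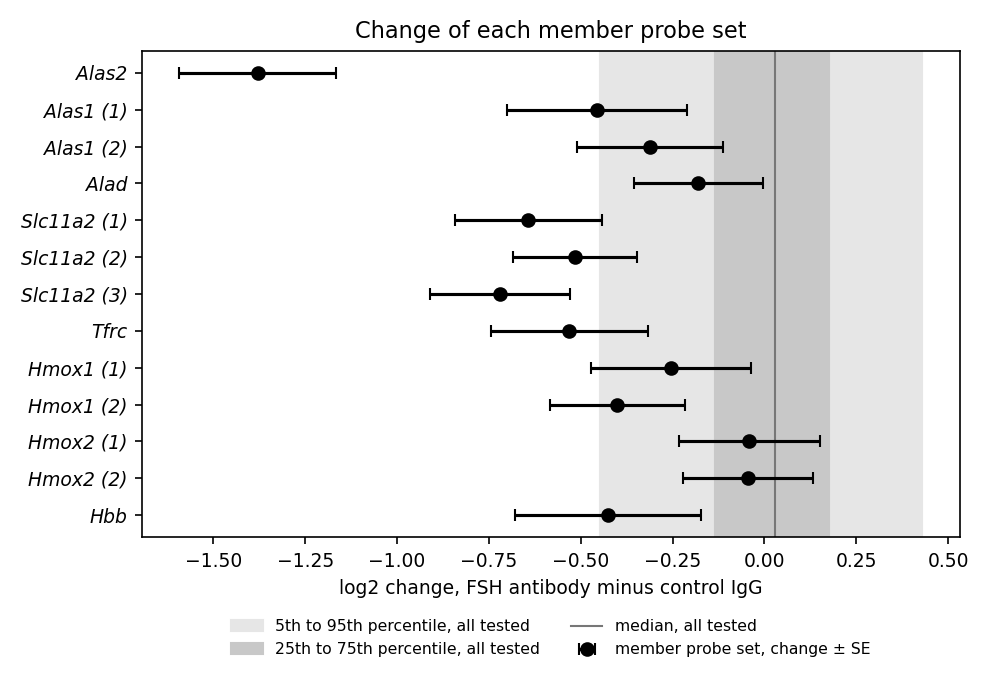
Log2 change of each member probe set (points, with SE as bars; antibody minus control) over the range of all 5252 tested probe sets, shaded from the 5th to the 95th percentile (−0.45 to 0.43) and from the 25th to the 75th (−0.13 to 0.18). Alas2, the 3 Slc11a2 probe sets, Tfrc and 1 Alas1 probe set lie below the 5th percentile, and both Hmox2 probe sets lie near the median of 0.03.

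Hbb served as the measure of the blood left in the organ, since its transcript is carried by reticulocytes. Its probe set is of a kind that Affymetrix marks as shared by a sequence family, so other beta globins may contribute. It read 1253.2 and 2260.0 in the control samples and 1150.7 and 1356.6 in the antibody samples. The second control array stood apart with 1.80 times the value of the first, and the first control lay between the antibody arrays. The log2 change was −0.43 ± 0.25, but −0.0042 ± 0.20 without the second control array and −0.85 ± 0.19 without the first.

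The other alpha and beta globin probe sets were also higher on the second control array than on the first. The dim embryonic globins Hbe2 and Hbe1 were not, with 45.3 and 41.6 and with 22.9 and 22.8 in the controls. Hbb-b1 read 647.9 and 1087.5 in the controls and 640.7 and 785.7 after the antibody (−0.24 ± 0.24). A probe set that pairs with 4 beta globin symbols gave −0.30 ± 0.17, and 1 that pairs with 2 alpha globin symbols gave −0.36 ± 0.21. The dim alpha globin Hba-a3 gave 0.05 ± 0.25, in the other direction. Within the control group, Alas2 was higher on the same array as the globins, by 1.38-fold. Within the antibody group the order was opposite: Hbb was 1.18 times as high on the second array as on the first, and Alas2 was at 0.713 of its value there.

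The difference Alas2 minus Hbb was taken on the log2 scale in each array and set to a control mean of 0. It was 0.21 and −0.21 in the control samples and −0.64 and −1.26 in the antibody samples, so the groups did not overlap. Since the same contrast chose Alas2, this is a description and not a test. With 2 arrays a group, an exact permutation test over arrays could give no p under 0.333. The antibody-minus-control difference was −0.95, with SDs of 0.30 and 0.44 in the 2 groups. It was −1.16 without the second control array, the one with the high globin values, and from −1.26 to −0.64 over the arrays left out in turn. With the single-symbol alpha and beta globins (Hbb, Hbb-b1 and Hba-a3) in place of Hbb it was −1.17, and with the 2 probe sets of several globin symbols, an alternative chosen after seeing the data, −1.05.

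**Figure D3:**
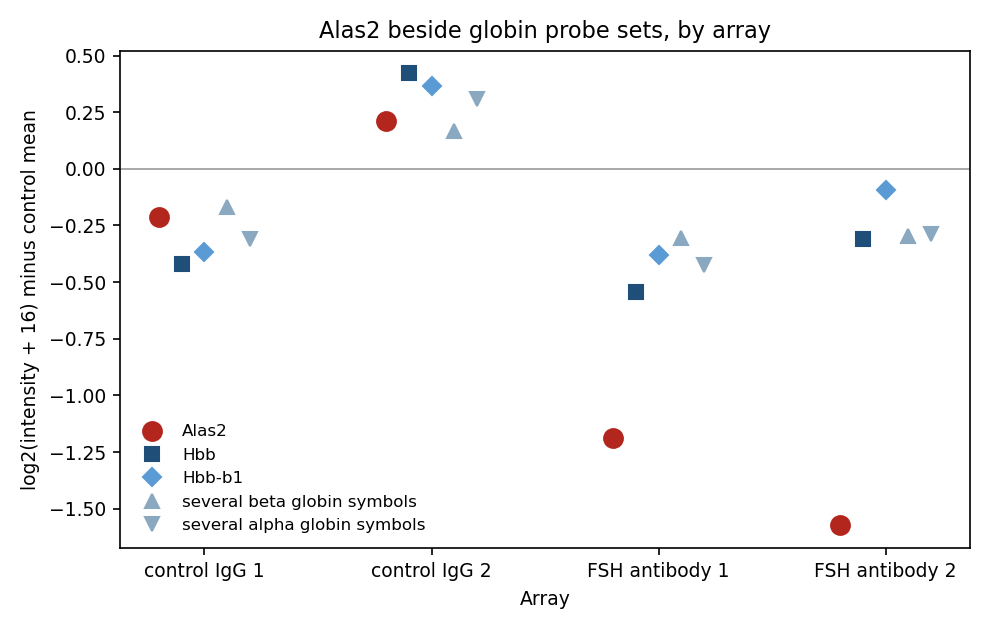
Log2(intensity + 16) of Alas2 (large circles) and of globin probe sets (squares, diamonds and triangles), each minus its own mean over the 2 control arrays, on each of the 4 arrays. Alas2 is higher in the same control sample as the globins and lies at −1.19 and −1.57 in the antibody samples, where Hbb is at −0.54 and −0.31.

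Among red cell markers other than Alas2, 6 of 9 genes with a single-symbol probe set were tested and none was called. Slc4a1, the anion exchanger of the red cell membrane, read 100.9 and 97.6 in the controls and 133.7 and 93.2 after the antibody (0.15 ± 0.20, and −0.13 on its other probe set). The summed level of the 6 genes was 2166.4 and 3626.0 in the control samples and 2076.7 and 2408.0 in the antibody samples, and that of Slc4a1 and the erythroid transcription factor Gata1 alone was 197.1 and 214.1 against 238.6 and 175.2. The untested markers Epb41, Rhag and Epor were dim, and none was at 0 on any array. Of these, Epb41, a protein of the red cell skeleton, read 36.5 and 24.6 in the controls and 6.4 and 8.3 after the antibody. Rhag read 18.9 and 22.2 against 18.6 and 33.2, and Epor 5.1 and 4.9 against 4.0 and 9.1, both with overlapping groups and higher means after the antibody. The part of red cell precursors in the lower Alas2 values was not tested beyond these levels. Of the other cell type markers, none of 6 tested for white cells and platelets (median log2 change 0.12), 4 for endothelium (0.25), 7 for Sertoli cells (0.03) and 7 for germ cells (−0.27) was called, and 1 of 4 for Leydig cells was, in the lower direction (Star; median −0.20). Over all tested probe sets, 0.267% were called in either direction and 0.152% in the lower direction. The list medians cover members that differed widely, of which some are named here after their values were seen. Of the 7 Sertoli cell markers, 3 had groups without overlap in the lower direction and 1 in the higher direction. Over all tested probe sets, such groups made up 37.4% in either direction and 15.5% in the lower direction. Inha, the inhibin alpha subunit, gave −0.90 ± 0.19 (and −0.49 on its other probe set) and Shbg, the androgen-binding protein, −0.66 ± 0.16. Wt1 gave −0.06 ± 0.17 (and −0.01 and 0.09 on its other probe sets), and Amh, the anti-Müllerian hormone, 0.52 ± 0.16. Of the 6 white cell markers, 1 had groups without overlap in the lower direction and 3 in the higher direction. The lower one was C1qb, a complement subunit, at 31.3 and 49.2 in the controls and a dim 18.7 and 17.3 after the antibody. Its log2 change was −0.71 ± 0.23 (and 0.06 on its other probe set). The higher ones were Lyz2, a lysozyme, at 0.60 ± 0.22, Cd74 at 0.38 ± 0.22 and Itga2b at 0.20 ± 0.19. Among Leydig cell markers Star read 75.9 and 86.2 in the controls and a dim 25.5 and 12.8 after the antibody. Its log2 change was −1.49 ± 0.23 (and −1.38 on its other probe set). Cyp11a1, a P450 of steroid synthesis, gave 0.52 ± 0.21. The summed level of the 7 germ cell markers differed within groups, with 1503.2 and 2266.9 in the control samples and 1779.2 and 1199.8 in the antibody samples. Of these, Ldhc read 41.6 and 333.6 in the controls and 143.6 and 41.3 after the antibody, and Hspa2 150.1 and 505.9 against 358.1 and 142.6. The summed level of the 4 endothelial markers was 197.4 and 194.8 in the control samples and 270.1 and 295.8 in the antibody samples. Most of that gap came from Edn1, the peptide endothelin 1, with means of 36.1 and 89.0, and less from Flt1, a VEGF receptor, with 59.5 and 84.2; Nos3 and Pecam1 gave log2 changes of 0.10 and 0.09. The part of these other cell types in the Alas2 values was not tested.

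The probe sets most like Alas2 over the 4 arrays were found by the Euclidean distance of their log2 values, each minus its own mean, among 4348 other tested single-symbol probe sets. The nearest 5 belonged to 4 genes, and all of them are also lower in the contrast that chose Alas2. They were Arl2, a small GTPase (distance 0.14), Star, the mitochondrial cholesterol carrier of steroid synthesis (0.24 and 0.35 on its 2 probe sets), Aqp8, a water channel (0.29), and Ctrc, a chymotrypsin (0.39). Aqp8 read 222.6 and 397.0 in the controls and 125.1 and 79.6 after the antibody. Ctrc read 56.1 and 85.8 against 26.1 and 24. Of the 4348, Hbb ranked 264th, at a distance of 1.09, and the nearest other member, the third Slc11a2 probe set, ranked 94th, at 0.92. These ranks rest in part on the contrast that chose Alas2, so they are a description and not a test of likeness.

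The other tested genes of heme synthesis gave log2 changes from −0.23 to 0.07. Of 14 listed, 4 were measured by a single-symbol probe set, none was called, and the median log2 change was −0.07 against 0.03 over all 3169 tested genes. Tspo, a protein of the outer mitochondrial membrane that binds porphyrins and cholesterol, gave −0.09 ± 0.17. Abcb6, a porphyrin transporter, gave −0.06 ± 0.19, and Urod, the uroporphyrinogen decarboxylase, gave 0.07 ± 0.18. The dimmest of them, Ppox, gave −0.23 ± 0.21 with overlapping groups, and 0.03 on its other probe set.

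In heme breakdown and transport, 5 further genes were tested and none was called (median 0.14). Por, which supplies electrons to heme oxygenases and cytochromes P450, gave 0.14 ± 0.21. Pgrmc1, a membrane protein that binds heme, gave −0.22 ± 0.17, and Blvra, the biliverdin reductase that acts after heme oxygenase, −0.23 ± 0.26. Named after their values were seen, the plasma scavengers both had higher values on both antibody arrays. Both probe sets were dim, and groups that did not overlap in either direction made up 37.4% of all tested probe sets. Haptoglobin (Hp), which binds free hemoglobin, read 38.9 and 36.7 against 62.4 and 49.1 (0.41 ± 0.20), and hemopexin (Hpx), which binds free heme, read 20.0 and 28.0 against 38.4 and 41.3 (0.49 ± 0.21).

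Of the other iron handling genes, 10 were tested, 5 with higher and 5 with lower values, and none was called (median 0.03). Fdx1, the ferredoxin of iron-sulfur cluster and steroid synthesis, read 456.8 and 582.5 in the controls and 286.4 and 243.1 after the antibody. Its log2 change was −0.93 ± 0.19 (limma, adjusted p = 0.116), and its other probe set gave −0.64. B2m, the partner of the iron regulator Hfe and of MHC class I, gave −0.05 ± 0.17.

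The 2 iron regulatory proteins, which bind iron-responsive elements in transcripts such as those of Tfrc, Fth1 and Alas2, gave values in opposite directions. Aco1 (iron regulatory protein 1) read 184.4 and 157.9 in the controls and 239.3 and 201.9 after the antibody, with a log2 change of 0.34 ± 0.18. Ireb2 (iron regulatory protein 2), named after its values were seen, read 160.6 and 134.4 against 97.1 and 105.8, with a log2 change of −0.47 ± 0.18. Neither was called. The groups overlapped for neither, which held for 37.4% of all tested probe sets. Chosen in the same way, Ncoa4, the receptor that takes ferritin to the lysosome, gave −0.48 ± 0.20, and the iron exporter Slc40a1 (ferroportin) gave −0.38 ± 0.19 on its brighter probe set and −0.13 on the other.

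Of 14 tested genes whose proteins carry or use heme, 6 had higher and 8 had lower values (median −0.11). Beside shares of 0.267% called in either direction and 0.152% called lower over all tested probe sets, 1 of the 14 was called, as lower. It was Gucy1b1, the heme-binding subunit of soluble guanylate cyclase, at 231.5 and 151.8 in the controls and 61.2 and 64 after the antibody (−1.37 ± 0.21, limma, adjusted p = 0.0418). This call ended with quantile normalization, median centring, no filter, no intensity trend and without either control array, where the log2 change was −1.09 without the first and −1.66 without the second. Its partner subunit Gucy1a1 gave −0.12 ± 0.17. Cyp17a1, the P450 of androgen synthesis, gave −0.17 ± 0.17, and Cyc1, cytochrome c1 of the respiratory chain, −0.26 ± 0.18. Cyp51, the P450 of cholesterol synthesis, gave −0.19 ± 0.18 on its brightest probe set and from −0.15 to 0.25 on the others. Named after its values were seen, Cyp11a1 read 104.6 and 95.1 in the controls and 185.1 and 121.3 after the antibody (0.52 ± 0.21).

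**Figure D4:**
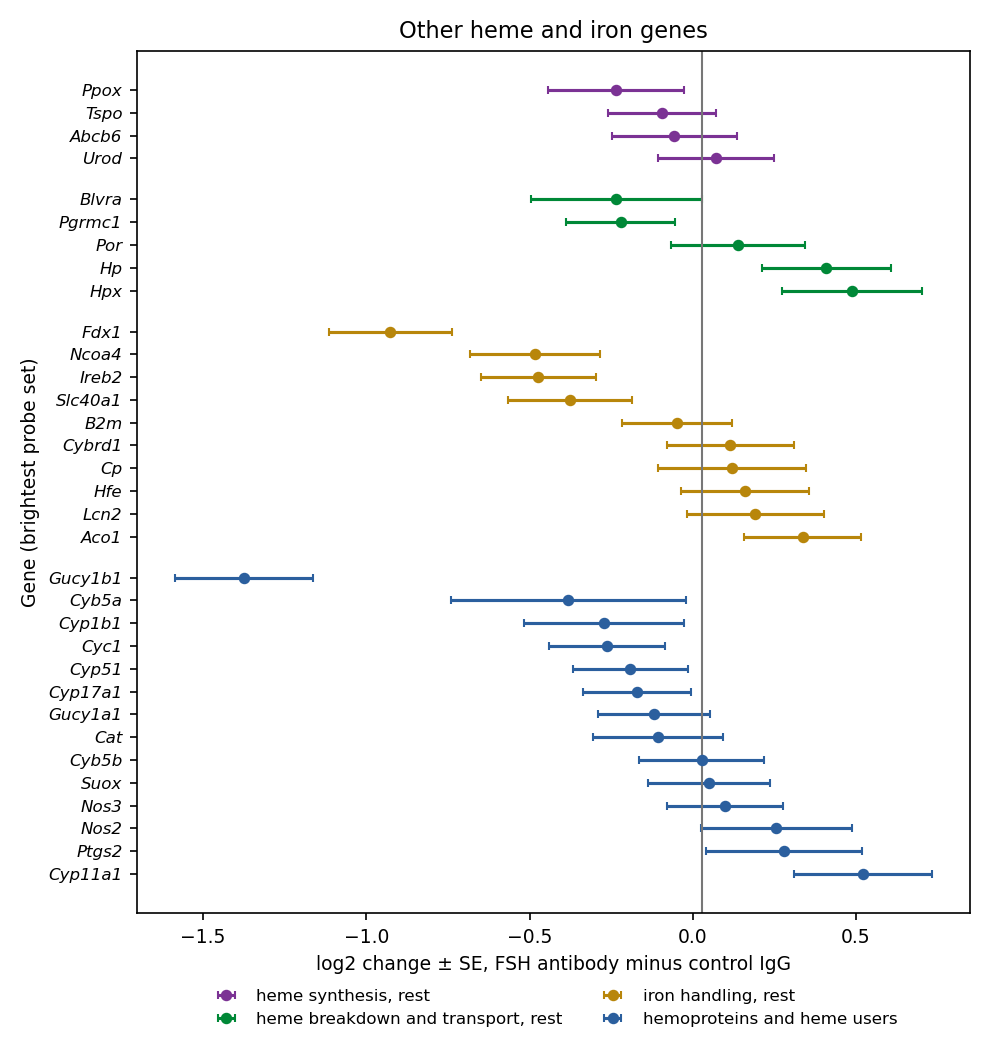
Log2 change ± SE (antibody minus control) of the other tested genes of heme synthesis, heme breakdown and transport, iron handling and heme use, 1 brightest probe set per gene, with a vertical line at the median of all tested probe sets (0.03). Gucy1b1 at −1.37 and Fdx1 at −0.93 lie farthest to the left, and most others lie between −0.5 and 0.5.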

How the data were processed

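RNA from the testis was measured on 4 arrays. The deposited values are intensities, 1 per probe set; the software, scaling and background correction are not stated in the labels. The trimmed mean, leaving out 2% at each end, came to 125 for every array, so a common scaling preceded deposit; none was added. Without detection calls, no level can be called above background.

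A platform annotation table gave a single symbol for 7018 probe sets, several for 308 and none for 1473; 6994 were looked up by Entrez identifier in a RefSeq table of assembly GRCr8. No build is named for the arrays, so no positions are given. Values were analysed as log2(intensity + 16). The 59 control probe sets were left out, and probe sets with a mean at or above the 40th percentile were tested in limma 3.58.1 (R 4.3.3; lmFit, then eBayes with a trend on intensity). Tests were two-sided, and an adjusted p (Benjamini-Hochberg) under 0.05 made a call. For lists, the brightest probe set stood for a gene. Named were all members, and per list of heme, iron and red cell genes the called ones, those without overlap and a log2 size of at least 0.585, and the 3 brightest. Other cell type lists were given by counts. Further names in any list were chosen after their values were seen. The code was tested on simulated data.

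The members and lists were chosen with earlier results of these data known. The alternatives were other scalings, constants and filters, no trend, each array left out, the replicate number as a block, and other probe sets for a gene or for blood. Deviations of same-numbered arrays from their group means correlated at 0.0039 over probe sets.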

Additional observations from a re-analysis of the deposited data

How the results depend on the processing

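Of the 13 member probe sets, 10 kept their direction in all 12 alternative settings. A direction fixed by groups that do not overlap is no sign of stability. Among the 10, Hbb had overlapping groups, and its change was −0.0042 without the second control array. The exceptions were 1 Hmox1 probe set (J02722cds_at), which ranged from −0.551 to 0.0418 with 1 array left out, and both Hmox2 probe sets, from −0.235 to 0.154 (J05405mRNA_s_at, also 0.038 without FSH antibody replicate 1) and from −0.148 to 0.0612 (U05013_at). The cause was not tested.

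Alas2 kept its sign, at −1.59 to −1.17 with 1 array left out, but was not called by limma with quantile normalization (−1.39), median centring (−1.43), a constant of 1 (−1.58), no filter (−1.38), no intensity trend (−1.38) or without either control array. The 14 calls became 0 with quantile normalization and with no filter, where 420 and 702 probe sets had an unadjusted p under 0.05, 4 with median centring and 0 to 153 with 1 array left out. With the replicate number as a block there were 39 calls, and Alas2 was among them; the numbers are not shown to pair the arrays. The Alas2 minus Hbb difference was −1.15 with a constant of 1 and −0.58 with a constant of 64.

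Some list medians moved by more than the spread between arrays. At the 60th percentile filter, where fewer genes are tested, heme breakdown and transport went to −0.22, iron handling to −0.47 and heme users to −0.17. Heme users gave −0.0397 with no filter and −0.0464 with the mean of probe sets. Heme synthesis ranged from −0.19 to 0.035 and turned positive without the second control array. In no setting run did it move beyond that spread. With 1 array left out, where some of the values moved beyond it, the ranges were −0.11 to 0.28 for heme breakdown and transport, −0.0700 to 0.0168 for iron handling, −0.10 to 0.0181 for heme users and −0.32 to 0.0524 for red cell markers.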
